A study of Mus musculus with 6 samples.

Results

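Genes of contractile smooth muscle cells, pericytes and myofibroblasts were followed in the RPE-choroid of control and subretinal fibrosis mice by 10 representatives. They are Acta2, Tagln, Cnn1, Myh11, Myl9, Tpm2, Actg2, Lmod1, Smtn and Rgs5. Of these, Rgs5 encodes a signalling regulator and not a part of the contractile apparatus, but is counted among the 10 contractile genes below. The 10 genes were chosen by name, and all were found among the 15663 genes of the deposited tables. All met the count criterion under which 13454 genes were tested. The question was whether this gene program moves as a whole in fibrosis, or Acta2 alone. The tissue comprises the pigmented epithelium behind the photoreceptors (RPE) and the vascular choroid beneath it. The 3 control mice were untreated and healthy. The 3 fibrosis mice received 4 laser burns in each eye, a second burn on each lesion 10 days later, and tissue collection 20 days after that second laser. All were C57BL/6 mice, given as male C57BL/6J of 8 to 10 weeks in the study's methods, and each library came from 1 mouse. The sources do not say whether lesions were dissected from the surrounding RPE-choroid. The p-values below measure the spread between these mice.

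Smooth muscle cells wrap the arterioles of the choroid and pericytes wrap its capillaries. Both contract by sliding actin filaments over myosin, and tropomyosin, calponin and leiomodin bind the filaments and set how they assemble and engage. Some of the contractile genes are also used to recognise myofibroblasts, matrix-producing cells of scars that build actin bundles. The usual marker is αSMA, the product of Acta2. Not every gene followed here serves for this, as Myh11 is expressed by few cells other than smooth muscle and Rgs5 marks pericytes and vascular smooth muscle. Transcription of the contractile apparatus genes depends on serum response factor and its partners of the myocardin family, which bind a short element called the CArG box.

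The CArG boxes close to the start sites are shown because they are the sequence feature that the program is known for. RefSeq promoter windows on GRCm38.p6, of 300 bases each with 250 of them before the start site, were found for 7 of the 10 genes. A box with up to 1 mismatch in its A/T core was present in 2 of these 7, Acta2 and Myl9, and in 9.98% of all 32851 windows. An exact box was present in 1 of the 7, Myl9, and in 1.63% of all windows. In the sequences below, each of 30 bases written 5′ to 3′ on the strand of the gene, capitals mark the box. The Acta2 boxes begin 84 and 34 bases before the RefSeq start site, and the Myl9 boxes begin 161 and 99 bases before it.
Acta2 at chr19:34255438-34255467, minus strand: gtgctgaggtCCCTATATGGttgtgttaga
Acta2 at chr19:34255388-34255417, minus strand: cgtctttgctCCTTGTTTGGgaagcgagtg
Myl9 at chr2:156775293-156775322, plus strand: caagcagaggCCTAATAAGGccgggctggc
Myl9 at chr2:156775355-156775384, plus strand: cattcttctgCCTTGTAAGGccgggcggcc
GENCODE M21 begins the Acta2 gene further upstream, at 34255590, and annotates both Acta2 stretches as exon and UTR of Acta2. The Myl9 stretches lie in no annotated exon. The windows of Cnn1, Tpm2, Lmod1, Smtn and Rgs5 held no such letters, which says nothing of boxes elsewhere in these genes.

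Counts per library summed to between 13667310 and 24356023, and levels are given in CPM, read counts scaled by TMM-adjusted library sizes. RNA of photoreceptors, cells of the adjoining retina, set 2 libraries apart, control mouse 1 and fibrosis mouse 3. The mean over 18 photoreceptor genes was 8.21 and 8.23 on the log2 CPM scale in these and between 4.20 and 5.49 in the other 4. The mean over 15 RPE genes was between 9.58 and 10.02 in all libraries. Bulk RNA cannot tell fewer cells of a type from less RNA in each cell, and this holds for every level below.

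No change of the contractile program passed the test. With the quasi-likelihood test of edgeR, Benjamini-Hochberg adjusted over 13454 genes, 0 of the 10 met both criteria for a call (adjusted p-value under 0.05, absolute log2 fold change from 0.5 up), against 0% of all tested genes. At an unadjusted p-value under 0.05, also 0 of 10 passed, against 7.01% of all tested genes. DESeq2 on the same counts called 0 of the 10 and 1.14% of all tested genes. Of the 10 genes, 5 were higher and 5 lower in fibrosis, where 50.3% of all tested genes were higher. Their median log2 fold change was 0.00, the same as the median of all tested genes, and their values ran from -0.30 for Actg2 to 0.28 for Tpm2. Without Rgs5 the median was -0.05. Leaving out single mice, the median of the 10 lay between -0.12 and 0.09. The number of the 10 that were higher then ran from 2, without fibrosis mouse 1 or 2, to 8, without fibrosis mouse 3. Without fibrosis mouse 3, 1 of the 10 had an unadjusted p-value under 0.05 by edgeR, against 12.8% of all tested genes. The control and fibrosis libraries overlapped for each of the 10 genes, while 13.1% of all tested genes did not overlap, 6.71% higher and 6.43% lower in fibrosis. In FPKM, too, 0 of the 10 genes were without overlap, against 12.7% of all tested genes. The plot of normalized counts by mouse shows this overlap.

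**Figure D1:**
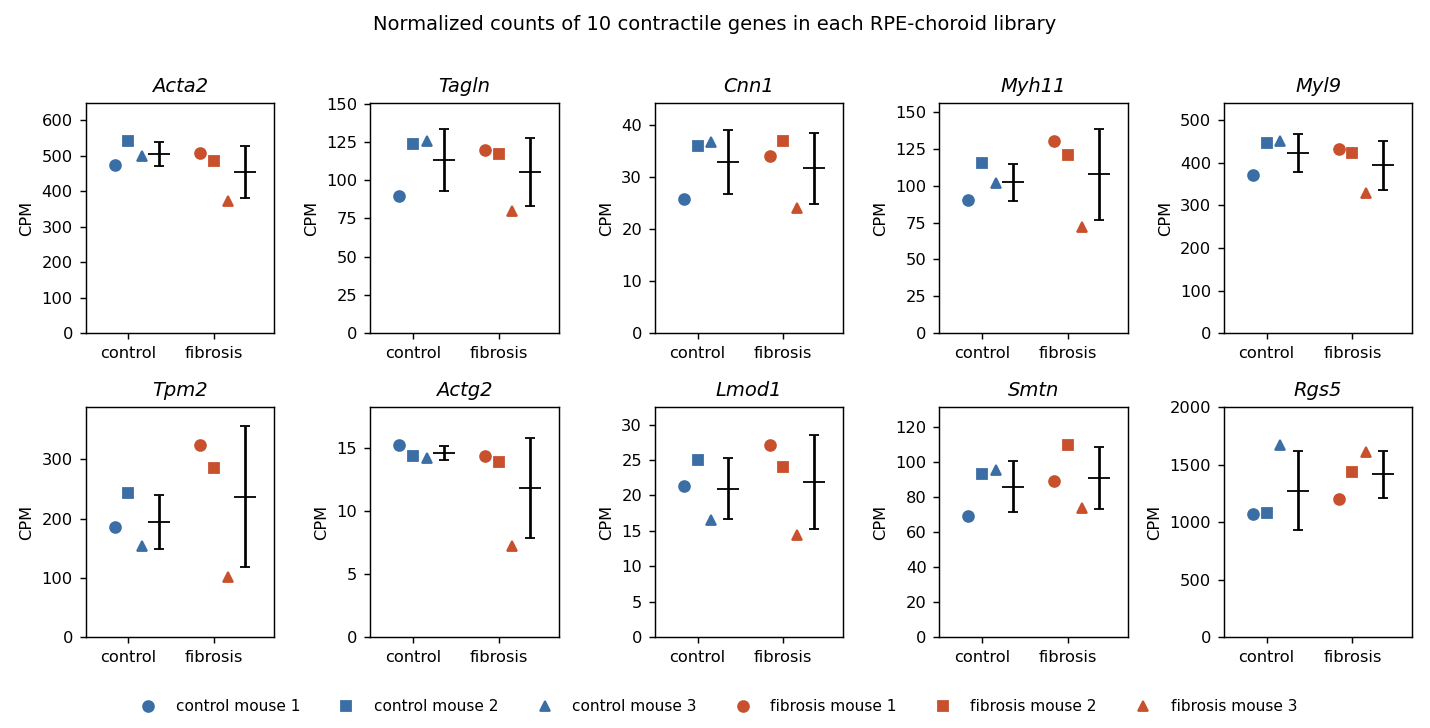
Normalized counts (CPM, linear axes from 0) of the 10 contractile genes in 3 control and 3 fibrosis libraries, with 1 symbol per mouse and the mean ± SD of each group beside the points. The 2 groups overlap in every panel, and fibrosis mouse 3 (red triangle) is the lowest library for 8 of the 10 genes.

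Acta2 (ENSMUSG00000035783, chromosome 19, 34241090 to 34255590, minus strand of GRCm38) encodes α smooth muscle actin, the actin of contractile filaments in vascular smooth muscle and the protein stained as αSMA in scars. It was at 473, 541 and 500.5 CPM in control mice 1, 2 and 3 and at 508, 485 and 371 CPM in fibrosis mice 1, 2 and 3. Fibrosis mice 1 and 2 lay within the control range and fibrosis mouse 3 below it. The control mean was 505 ± 34.1 CPM (SD, n = 3) and the fibrosis mean 455 ± 73.4 CPM (SD, n = 3). This gave a log2 fold change of -0.15 (standard error 0.15) and, by the quasi-likelihood test of edgeR, a Benjamini-Hochberg adjusted p of 0.971. An exact permutation test over the mice, two-sided, gave p = 0.5, where 3 mice against 3 allow no p below 0.1. The 95% interval of the fold change ran from 0.707 to 1.15, so a rise of Acta2 in the whole tissue by more than a factor of 1.15 lay outside it.

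Actg2 (ENSMUSG00000059430, chromosome 6, 83512905 to 83536265, minus strand) encodes the γ actin of enteric smooth muscle and was the less abundant of the 2 smooth muscle actins. It was at 15.3, 14.4 and 14.3 CPM in control mice 1, 2 and 3. In fibrosis mice 1, 2 and 3 it was at 14.4, 13.9 and 7.28 CPM. The controls were tight, and the lower fibrosis mean came from mouse 3. The log2 fold change was -0.30 (standard error 0.27, edgeR adjusted p = 0.951 after Benjamini-Hochberg adjustment), and it was -0.05 when fibrosis mouse 3 was left out.

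The myosin genes encode the motor that pulls on these filaments. Myh11 (ENSMUSG00000018830, chromosome 16, 14194535 to 14291372, minus strand), the smooth muscle myosin heavy chain, is expressed by few cells other than smooth muscle. It was at 90.2, 115 and 102 CPM in control mice 1, 2 and 3 and at 130.04, 121 and 72.3 CPM in fibrosis mice 1, 2 and 3. Here the highest and the lowest library both belonged to the fibrosis group. The log2 fold change was 0.07 (standard error 0.23), with a 95% interval of the fold change from 0.724 to 1.53. Myl9 (ENSMUSG00000067818, chromosome 2, 156775420 to 156781658, plus strand) encodes the regulatory light chain whose phosphorylation starts contraction. It was at 371, 446 and 450.3 CPM in control mice 1, 2 and 3 and at 432, 422 and 329 CPM in the fibrosis mice in the same order. The groups overlapped, and the lowest library of each group was the one rich in photoreceptor RNA. The log2 fold change was -0.10 (standard error 0.15) and the 95% interval of the fold change ran from 0.729 to 1.19.

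Tagln, Cnn1 and Smtn encode proteins that bind actin filaments of differentiated smooth muscle, namely transgelin (SM22), calponin 1 and smoothelin. Tagln (ENSMUSG00000032085, chromosome 9, 45929619 to 45936058, minus strand) was at 89.6, 124 and 125 CPM in control mice 1, 2 and 3 and at 119, 117 and 79.6 CPM in fibrosis mice 1, 2 and 3. Its log2 fold change was -0.10 (standard error 0.21). Cnn1 (ENSMUSG00000001349, chromosome 9, 22099216 to 22109630, plus strand) was at 25.8, 36.0 and 36.8 CPM against 34.1, 36.9 and 24.0 CPM, with a log2 fold change of -0.05 (standard error 0.21). For both genes control mouse 1 and fibrosis mouse 3 were low and the other 4 libraries were nearly level. Smtn (ENSMUSG00000020439, chromosome 11, 3517523 to 3540612, minus strand) was at 69.2, 93.1 and 95.2 CPM in controls 1 to 3 and at 88.9, 109.5 and 73.9 CPM in the fibrosis group, a log2 fold change of 0.08 (standard error 0.19). The same 2 libraries were its lowest. Tagln shared the most sequence with other genes among the 10. In its annotated transcripts 58.3% of the windows of 50 bases also occur, on either strand, in transcripts of Gm48529 or Pcsk7. These 2 genes overlap it on the opposite strand, and Gm48529 held 1098 of the shared windows and Pcsk7 59. Gm48529 is not listed in the tables, and Pcsk7 was at 21.1 ± 4.38 CPM (SD, n = 3) without and 21.9 ± 7.25 CPM (SD, n = 3) with fibrosis. For Smtn this share was 9.46%, with Gm11946 on the opposite strand, for Acta2 0.326% and for Myh11 0.34%. No window was shared for the other 6 genes. Whether counting used the strand is not given in the sources used here.

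Tpm2 had the largest standard error of the 10. Tpm2 (ENSMUSG00000028464, chromosome 4, 43514711 to 43523765, minus strand) encodes β tropomyosin, which is made by skeletal as well as smooth muscle. It was at 185, 244 and 154 CPM in control mice 1, 2 and 3 and at 324, 285 and 101 CPM in fibrosis mice 1, 2 and 3. Fibrosis mice 1 and 2 were above and fibrosis mouse 3 was below all 3 controls. The log2 fold change was 0.28 with a standard error of 0.41, and its interval of the fold change, from 0.619 to 2.39, was the only one of the 10 to reach beyond a factor of 2. Lmod1 (ENSMUSG00000048096, chromosome 1, 135324807 to 135368065, plus strand), the smooth muscle leiomodin that nucleates actin filaments, was at 21.4, 25.0 and 16.5 CPM in controls 1 to 3 and at 27.1, 24.1 and 14.5 CPM in the fibrosis group. Its log2 fold change came to 0.06 (standard error 0.27), and fibrosis mouse 3 was again the lowest library.

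Rgs5 (ENSMUSG00000026678, chromosome 1, 169655501 to 169695813, plus strand) encodes a regulator of G protein signalling that marks pericytes and vascular smooth muscle. It was at 1075, 1083 and 1671 CPM in control mice 1, 2 and 3 and at 1202, 1436 and 1613 CPM in fibrosis mice 1, 2 and 3. Control mouse 3 was above all fibrosis mice and the other controls were below them. The log2 fold change was 0.15 (standard error 0.21), and the fold change had a 95% interval from 0.787 to 1.57. Without control mouse 3 the log2 fold change was 0.39.

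The adjusted p-values of the 10 genes lay between 0.951 and 0.9999 (edgeR quasi-likelihood test, Benjamini-Hochberg adjusted). For 9 of the 10 the whole 95% interval lay within a factor of 2 either way, as for 79% of all tested genes, and for 5 of the 10 within a factor of 1.5, as for 45.4% of all tested genes. Changes that lie inside these intervals are not excluded with 3 mice in each group. The intervals do not give the size of change that the test would call. Among all 13454 tested genes the smallest adjusted p-value was 0.0504 (edgeR quasi-likelihood test, Benjamini-Hochberg adjusted), so no change of any size was called. The plot of changes gives the intervals beside 3 other fits.

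**Figure D2:**
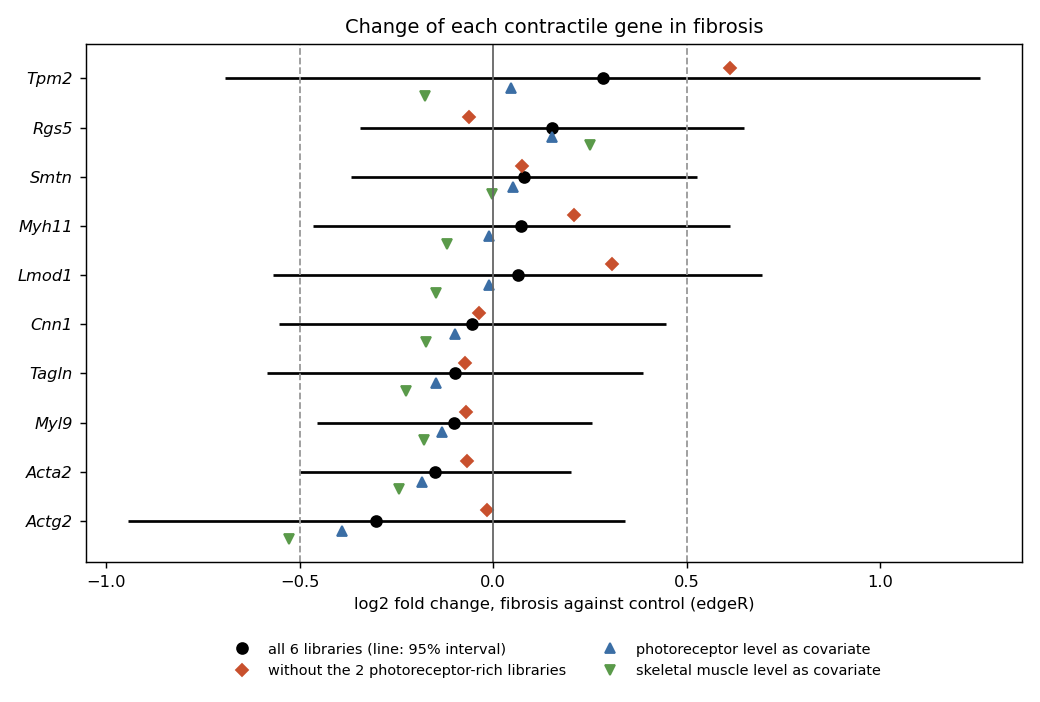
Log2 fold change of each contractile gene, fibrosis against control, from edgeR. Black points and lines give the fit on all 6 libraries with its 95% interval, coloured symbols give the fits without control mouse 1 and fibrosis mouse 3 or with the photoreceptor or skeletal muscle level as a covariate, and dashed lines mark 0.5 either way. All 10 intervals include 0, and Tpm2 ranges most between fits, from -0.18 to 0.61.

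Acta2 was then set against the other 9 genes within each library. Its log2 CPM exceeded their mean log2 CPM by 2.41, 2.32 and 2.29 in control mice 1, 2 and 3. The excess was 2.16, 2.09 and 2.35 in fibrosis mice 1, 2 and 3, so fibrosis mouse 3 lay among the controls and the other fibrosis mice below them. The group means were 2.34 ± 0.06 (SD, n = 3) and 2.20 ± 0.13 (SD, n = 3), a difference of -0.14 on the log2 scale. Without Rgs5 among the other genes the difference was -0.12. Taken gene by gene, the log2 ratio of Acta2 to each of the others was lower in fibrosis for 8 of the 9 and higher for Actg2. These differences ran from -0.33 against Rgs5 to 0.21 against Actg2. The margin of Acta2 over the other genes was thus not higher in fibrosis.

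The level of each gene per transcript length was read from the authors' FPKM values. Myl9 was the most abundant of the 10, with a mean of 361 FPKM over the 6 libraries, which placed it 164th of 15663 genes. Rgs5 followed at 329.6 FPKM, Acta2 at 243, Tpm2 at 145 and Tagln at 69.6 FPKM. Smtn was at 28.0, Cnn1 at 20.3, Myh11 at 16.1, Actg2 at 10.3 and Lmod1 at 5.41 FPKM. Between neighbours in this order the ranges over the libraries did not overlap for Tagln above Smtn and overlapped for the other 8 pairs. Within a library the order was nonetheless the same in 6 of 6 for all pairs from Acta2 downward. Rgs5 was above Acta2 in 5 of 6 libraries, and Myl9 above Rgs5 in 4 of 6.

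Many of the genes belong to families with members that serve non-muscle cells or striated muscle. Other members, such as Tpm1, also serve smooth muscle, so the shares below do not divide smooth muscle from other cells. Among the actins, Acta2 made up 11.2% ± 1.02 (SD, n = 3) of the summed FPKM in control and 9.74% ± 0.683 (SD, n = 3) in fibrosis mice. Most of the rest was cytoplasmic actin, with Actb at 54.9% and 53.5% and Actg1 at 19.3% and 17.6%. Skeletal actin, Acta1, held 13.7% ± 2.86 (SD, n = 3) and 18.4% ± 6.87 (SD, n = 3). Cnn1 was a small part of the calponins, 3.26% ± 0.283 (SD, n = 3) against 3.38% ± 0.908 (SD, n = 3), beside Cnn3 at 86.8% and 86.2%. Tagln was the main transgelin, at 58.8% ± 9.07 (SD, n = 3) and 57.0% ± 6.66 (SD, n = 3). Tpm2 held 25.9% ± 4.30 (SD, n = 3) of the tropomyosin FPKM in control and 24.5% ± 7.35 (SD, n = 3) in fibrosis mice. Myh11 was 44.1% ± 4.39 (SD, n = 3) and 42.5% ± 0.864 (SD, n = 3) of Myh9, Myh10, Myh11 and Myh14 together. Of 26 tested paralogues 0 were called, and 1, Tpm3, had an unadjusted p-value under 0.05 (log2 fold change 0.38, standard error 0.15), against 4.16% of all tested genes in that direction.

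The lowest levels of the contractile genes fell in the same libraries. Fibrosis mouse 3 was the lowest library for 8 of the 10 genes and for 23% of all tested genes. It and control mouse 1, the 2 libraries rich in photoreceptor RNA, were the 2 lowest for 6 of the 10, Acta2, Tagln, Cnn1, Myh11, Myl9 and Smtn, and for 10.4% of all tested genes. In control mouse 1 the 10 genes had a mean log2 CPM of 6.72, and in fibrosis mouse 3 of 6.42. It was 6.99 and 6.90 in control mice 2 and 3 and 7.04 and 7.04 in fibrosis mice 1 and 2. Leaving out the 2 libraries gave 0 calls among the 10, and 1 of them, Tpm2, had an unadjusted p-value under 0.05 there, against 17.5% of all tested genes. In that fit the log2 fold change of Acta2 was -0.07 (standard error 0.13), that of Actg2 -0.02 and that of Myh11 0.21. With the photoreceptor level as a covariate Acta2 was at -0.19 (standard error 0.12). The part of retinal RNA in the spread was not tested.

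**Figure D3:**
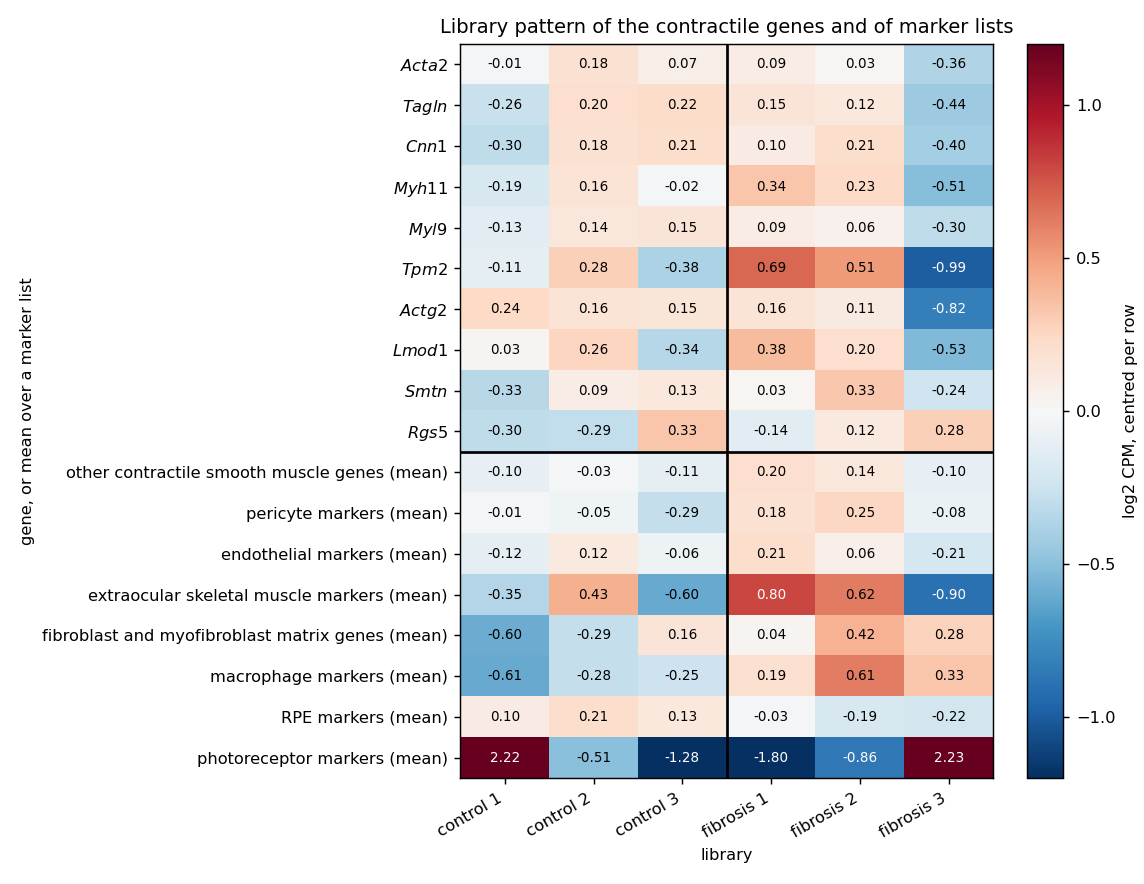
Log2 CPM of the 10 contractile genes (above the black line) and mean log2 CPM of 8 marker lists (below it) in each library, centred on the mean of the 6 libraries and coloured from blue (low) to red (high), with the colour capped at 1.2 either way. Fibrosis mouse 3 is blue for every contractile gene except Rgs5, and the photoreceptor row is red in control mouse 1 and fibrosis mouse 3 only.

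Across the 6 libraries most of the program had a like profile. The log2 CPM of Tagln correlated with that of Myl9 at r = 0.99 and with that of Cnn1 at r = 0.98. Acta2 correlated with Myl9 at r = 0.92, with Actg2 at 0.92, with Tagln at 0.88 and with Myh11 at 0.85. Rgs5 stood apart, with r = -0.52 to Acta2 and -0.74 to Lmod1. These are descriptions over 6 libraries that share the low value in fibrosis mouse 3. The 5 genes outside the program with a profile most like that of Acta2 were Itgb6, Map1lc3a, Dock5, Tmem245 and 2310002L09Rik, with r between 0.98 and 0.99. Those most like the mean of the 10 genes were Dnajc25, Kif26b, Rgcc, Mcl1 and Snrpf, with r between 0.987 and 0.997.

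Tpm2 and Lmod1 had library profiles close to that of skeletal muscle RNA, the tissue of the extraocular muscles that insert on the eye. The mean log2 CPM of 19 skeletal muscle genes was 5.92, 6.71 and 5.68 in control mice 1, 2 and 3 and 7.08, 6.90 and 5.38 in fibrosis mice 1, 2 and 3. The 6 libraries stood in the same order for Tpm2 and for this mean, with r = 0.97, and r was 0.95 for Lmod1, 0.92 for Myh11 and 0.68 for Acta2. Endothelial markers gave values of like size, and with the mean of 12 of them r was 0.96 for Myh11, 0.92 for Tpm2, 0.88 for Lmod1 and 0.78 for Acta2, over the same 6 libraries. With the mean of the 26 tested paralogues, among them Acta1, r was 0.91 for Myh11, 0.99 for Tpm2, 0.96 for Lmod1 and 0.69 for Acta2. With the regulators of the program described below r was 0.90, 0.91, 0.85 and 0.58 for these genes in the same order. With the photoreceptor genes r was -0.87, -0.69, -0.52 and -0.72 in that order, and of the 10 genes it was strongest for Tagln, at -0.94, and weakest for Rgs5, at -0.065. All 19 skeletal genes had a higher mean in fibrosis, with a median log2 fold change of 0.37, but 0 of them had an unadjusted p-value under 0.05 and their groups overlapped. Single libraries moved this median, to 0.05 without fibrosis mouse 1, 0.19 without control mouse 3, 0.66 without control mouse 2 and 0.72 without fibrosis mouse 3. Among them Acta1, the skeletal actin, was at 352, 652 and 397 CPM in controls 1 to 3 and at 901, 807 and 276 CPM in the fibrosis group. With the skeletal level as a covariate the log2 fold change of Tpm2 was -0.18 (standard error 0.12), of Lmod1 -0.15 and of Myh11 -0.12. In that fit Acta2 was at -0.24 (standard error 0.09, edgeR Benjamini-Hochberg adjusted p = 0.431) and Actg2 at -0.53. Both then had an unadjusted p-value under 0.05, as did 10.5% of all tested genes. The part of muscle tissue in these levels was not tested.

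**Figure D4:**
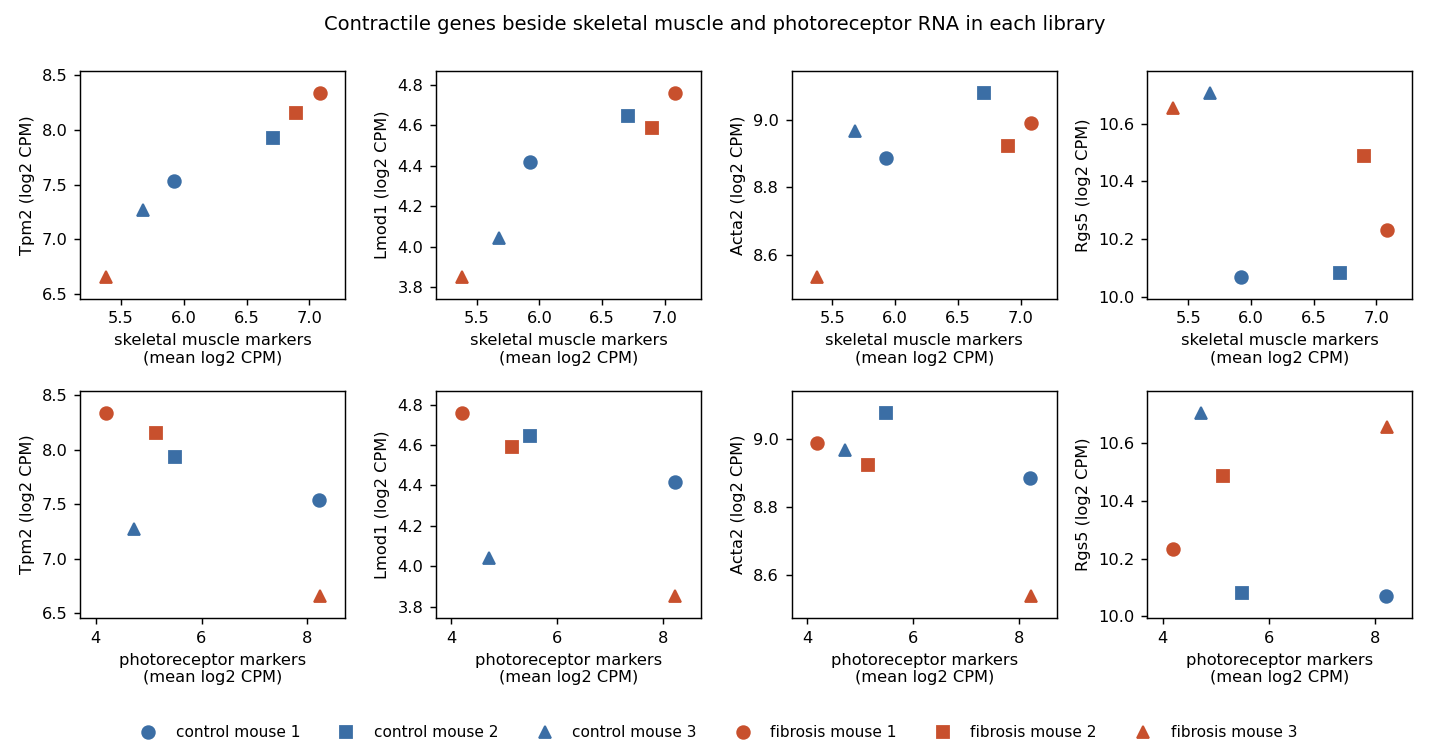
Log2 CPM of Tpm2, Lmod1, Acta2 and Rgs5 (y axes) against the mean log2 CPM of skeletal muscle markers (upper row) and photoreceptor markers (lower row), with 1 symbol per library. Tpm2 rises with the skeletal muscle level through all 6 libraries, while Acta2 is low mainly in fibrosis mouse 3.

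The wider smooth muscle program was read from 32 other genes, all of them tested. With edgeR 0 were called, as with DESeq2, and their median log2 fold change was 0.12, with 24 higher and 8 lower. The median was 0.03 without fibrosis mouse 1, 0.08 without fibrosis mouse 2, 0.21 without fibrosis mouse 3 and 0.04 with the skeletal muscle level as a covariate. At an unadjusted p-value under 0.05 there were 4 higher and 1 lower, against 4.16% and 2.85% of all tested genes. Csrp1, which encodes a LIM protein of actin bundles, had the smallest p-value, with 98.7 ± 28.9 CPM (SD, n = 3) in controls, 171 ± 24.0 CPM (SD, n = 3) with fibrosis, and a log2 fold change of 0.80 (standard error 0.22). Its values were 93.4, 72.8 and 129.8 CPM against 149, 196 and 169 CPM, without overlap. Ednra, the endothelin receptor of vascular smooth muscle, was at 53.1 ± 3.78 CPM (SD, n = 3) and 68.4 ± 6.51 CPM (SD, n = 3), also without overlap. Of the 32 genes, these 2 were higher and 1, Pln, was lower without overlap, against 6.71% and 6.43% of all tested genes. Pdlim3 and Pdlim7, which encode PDZ and LIM proteins of actin anchorage sites, had log2 fold changes of 0.56 and 0.42. Pln, the phospholamban that restrains the calcium pump, was the lower gene, with 13.2 ± 0.613 CPM (SD, n = 3) in fibrosis and 18.1 ± 1.57 CPM (SD, n = 3) in controls, a log2 fold change of -0.46 (standard error 0.14). The sixth, Ppp1r14a, an inhibitor of myosin phosphatase, had a log2 fold change of 0.68 with a standard error of 0.36. None of these passed adjustment over all genes, where the smallest value was 0.428, for Csrp1 (edgeR quasi-likelihood test, Benjamini-Hochberg adjusted). Des, Mylk and Cald1, the desmin, myosin light chain kinase and caldesmon genes, were at log2 fold changes of 0.29, -0.04 and 0.08.

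Regulators of the program were read from 15 genes, of which 0 were called by edgeR and 1, Fhl2, by DESeq2, which called 1.14% of all tested genes. Of the 15, 11 were higher and 4 lower, where 50.3% of all tested genes were higher. Their median log2 fold change was 0.14, and it was 0.04 without control mouse 3 and 0.30 without fibrosis mouse 3. Srf, the serum response factor gene, had 3.66 ± 1.31 CPM (SD, n = 3) without and 3.64 ± 0.743 CPM (SD, n = 3) with fibrosis. Myocd, which encodes myocardin, was at 5.99 ± 0.927 and 5.46 ± 1.02 CPM (SD, n = 3 each). Fhl2 encodes a LIM protein that binds serum response factor. It was at 18.3, 15.0 and 18.6 CPM in control mice 1, 2 and 3 and at 30.01, 36.4 and 25.5 CPM in fibrosis mice 1, 2 and 3. All fibrosis mice were above all controls for 3 of the 15 genes, Fhl2, Hey1 and Heyl, and below them for 0, against 6.71% and 6.43% of all tested genes. The log2 fold change of Fhl2 was 0.82 (standard error 0.17), and its Benjamini-Hochberg adjusted p was 0.298 by edgeR and 0.0177 by DESeq2. Klf4, a repressor of the program, varied widely among controls, at 19.9, 46.5 and 30.2 CPM, and was at 22.9, 20.5 and 15.3 CPM in the fibrosis group, a log2 fold change of -0.72 (standard error 0.31). The Notch target genes Hey1 and Heyl had log2 fold changes of 0.29 and 0.27, Notch3 of 0.53 and Mrtfb of 0.22.

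Pericyte, fibroblast and macrophage genes give the other cells that could carry or accompany the program. Of 11 pericyte markers 0 were called and 2, Anpep and Pdgfrb, had an unadjusted p-value under 0.05, both higher, against 4.16% of all tested genes in that direction. Of the 11, 9 were higher and 2 lower. Pdgfrb, the receptor for platelet-derived growth factor on mural cells, was at 105, 121 and 103 CPM in control and 160, 168 and 115 CPM in the fibrosis group, so fibrosis mouse 3 fell into the control range. Anpep was at 17.8 ± 1.80 CPM (SD, n = 3) and 27.4 ± 3.61 CPM (SD, n = 3) in the same order, and its log2 fold change was 0.62. Cspg4, which encodes the pericyte proteoglycan NG2, had a log2 fold change of -0.05. The remaining pericyte markers with the smallest p-values, Cox4i2, Ndufa4l2, Notch3 and Kcnj8, had log2 fold changes from 0.21 to 0.53. Of 20 fibroblast and myofibroblast matrix genes 19 were higher, with a median of 0.47, and 6 higher and 1 lower had an unadjusted p-value under 0.05, against 4.16% and 2.85% of all tested genes. This median was 0.23 without control mouse 1, 0.70 without control mouse 3 and 0.22 without both photoreceptor-rich libraries. edgeR called 0 of them and DESeq2 called 1, against 1.14% of all tested genes. That gene was Thbs1, the gene of the matrix protein thrombospondin 1 that can activate TGFβ, with 428 ± 169 CPM (SD, n = 3) in controls, 849.6 ± 149 CPM (SD, n = 3) with fibrosis, and a log2 fold change of 0.99 (standard error 0.29). Lox, which cross-links collagen, was at 15.1, 28.5 and 48.9 CPM against 55.4, 78.2 and 100.5 CPM. Col3a1, Col5a2 and Fn1 had log2 fold changes of 0.64, 0.55 and 0.55. Fap, a surface protease of activated fibroblasts, was the lower gene, with 116 ± 9.03 CPM (SD, n = 3) in fibrosis and 159 ± 7.15 CPM (SD, n = 3) in controls, a log2 fold change of -0.46 (standard error 0.11). Its Benjamini-Hochberg adjusted p was 0.370 by edgeR and 0.0252 by DESeq2. In DESeq2 its log2 fold change of -0.46 did not reach the size of 0.5 needed for a call.

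The 12 macrophage markers had a median log2 fold change of 0.84, the 12 endothelial markers of 0.03 and the 15 RPE markers of -0.33, beside 0.00 for the 10 contractile genes. DESeq2 called 5 of the macrophage markers higher and 3 of the RPE markers lower, against 1.14% of all tested genes either way, and edgeR called 0 of either. Unadjusted p-values under 0.05 were reached by 8 of 12 macrophage and 6 of 15 RPE markers, against 7.01% of all tested genes. The endothelial median lay between -0.05 and 0.15 when single mice were left out. The RPE median was -0.50 without fibrosis mouse 1 and -0.51 with the skeletal muscle level as a covariate. Ctss, which encodes the macrophage protease cathepsin S, had 180.5 ± 9.82 CPM (SD, n = 3) in controls and 552 ± 117 CPM (SD, n = 3) with fibrosis. Its log2 fold change of 1.61 was the highest of the 12 macrophage markers (edgeR Benjamini-Hochberg adjusted p = 0.106), while Csf1r and Itgam were at -0.03 and 0.03. A difference of the size of Ctss lay outside the interval of each contractile gene. The macrophage median of 0.84 lay inside that of Tpm2, which reached a log2 fold change of 1.26. The plot of gene lists sets these lists side by side.

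**Figure D5:**
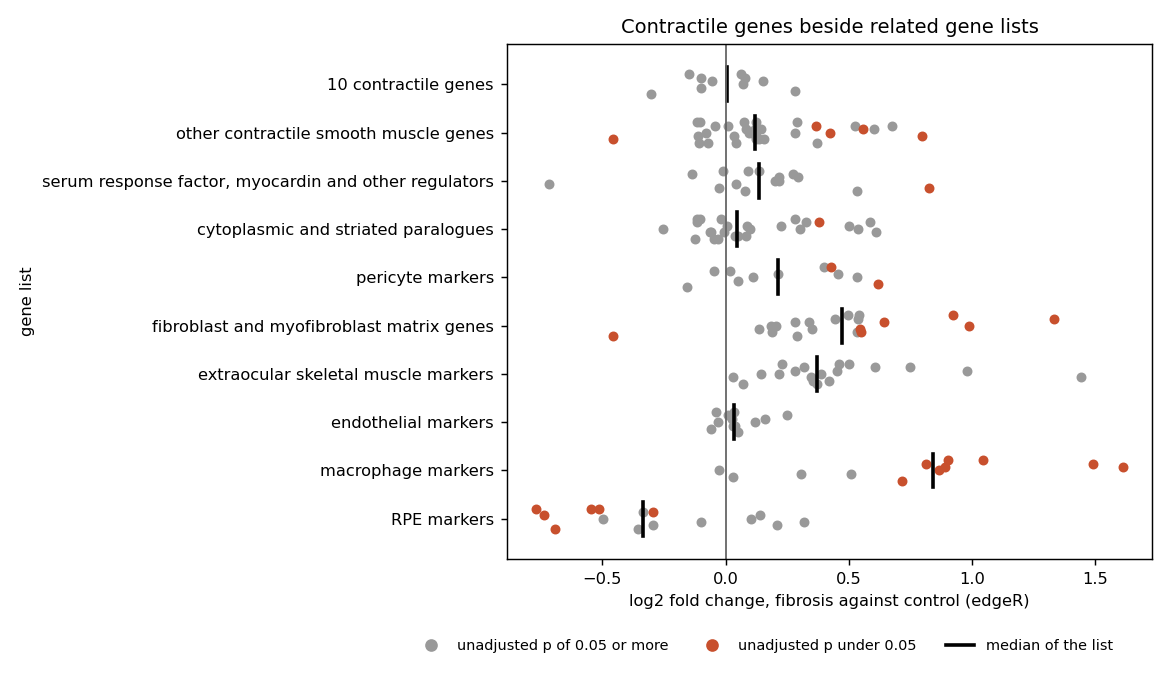
Log2 fold change, fibrosis against control, of each tested gene in 10 gene lists, with 1 point per gene, orange where the unadjusted p-value is under 0.05, and a black bar at the median of each list. The 10 contractile genes lie between -0.30 and 0.28 with no orange point, while the macrophage list has its median at 0.84.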

How the data were processed

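RNA-seq libraries of RPE-choroid from 3 control and 3 subretinal fibrosis mice were analysed, grouped by their titles. The authors filtered reads with FASTP and counted reads per gene with StringTie, and deposited these counts without normalization. They also deposited FPKM values, scaled by transcript length and mapped reads. The aligner, genome build, annotation and strand setting are not given in the sources used here. Identifiers were matched to GENCODE M21 (GRCm38), where 15659 of 15663 were found, and Mrtfa, Mrtfb and Ccn2 were found by RefSeq synonyms. No listed count was under 1, so genes undetected in a library are not in the tables.

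Tested were genes whose count passed 50 in 2 or more libraries, with edgeR 4.0.16 in R 4.3.3 (TMM, estimateDisp, glmQLFit and glmQLFTest, group as the only term), with Benjamini-Hochberg adjustment over all tested genes. Calls needed an adjusted p under 0.05 together with an absolute log2 fold change from 0.5 up. These are the study's criteria, which it applied with DESeq2 and not with edgeR. TMM factors lay between 0.978 and 1.03. Standard errors and 95% intervals of log2 fold changes come from the fitted weights and moderated quasi-dispersions, with t quantiles. Errors of levels are SDs over 3 mice, and the labels do not say how many eyes a library holds. Counting precision at these depths is high for the 10 genes, where 3 counts equal at most 0.22 CPM.

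Other settings tried were DESeq2 1.42.0, limma 3.58.1 (with voom for counts, and on FPKM after log2 with a pseudocount of 0.1 or 1), other normalizations and filters, marker levels as covariates, a replicate block and leaving out mice. DESeq2 with the photoreceptor level was added after seeing the data. The statistics were also run on simulated counts, with changes larger than those of the 10 genes and no libraries set apart by photoreceptor RNA. That run gave no check of how well changes as small as theirs are found. The 10 genes and all lists were chosen with earlier results of these data known, so no p-value over a list is given. Named beside the 10 genes are up to 6 genes of each list with the smallest p-values, paralogues by their level, and the genes of nearest profile. Genes of the lists named in addition (Des, Mylk, Cald1, Srf, Myocd and Cspg4) were chosen after their values were seen. The mouse numbers come from the titles and name different animals in each group.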

Additional observations from a re-analysis of the deposited data

How the results depend on the processing

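The count of contractile genes called stayed at 0 in each of the 22 other settings, and so did the count without overlap between groups when FPKM replaced CPM. Over the other gene lists together, edgeR called 0 genes, while DESeq2 called 10, DESeq2 on all genes 9, edgeR without control mouse 1 and fibrosis mouse 3 7, and DESeq2 with the photoreceptor level 14. Over all tested genes these settings called 153, 153, 154 and 254, against 0 in the main setting and at most 5 in any other. The fold change of Acta2 was below 0 in all 22 settings, between -0.24 and -0.02, and that of Actg2 in all 22, between -0.53 and -0.02. The other 8 genes each changed sign in at least 1 setting, without being called in any, and the cause was not tested. With the photoreceptor level as a covariate Myh11 and Lmod1 were at -0.012 and -0.011 in edgeR and at -0.017 and -0.020 in DESeq2. With the skeletal muscle level Myh11 was at -0.12, Tpm2 at -0.18, Lmod1 at -0.15 and Smtn at -0.0036, and Rgs5 was at -0.062 without the 2 libraries rich in photoreceptor RNA. With each mouse left out in turn, Acta2 ran from -0.24 to -0.02, Actg2 from -0.47 to -0.05, Tagln from -0.24 to 0.067, Cnn1 from -0.20 to 0.11 and Myl9 from -0.19 to 0.015. Myh11 ran from -0.088 to 0.29, Tpm2 from -0.0099 to 0.65, Lmod1 from -0.12 to 0.29, Smtn from -0.077 to 0.21 and Rgs5 from 0.04 to 0.39, and the difference between Acta2 and the other 9 genes from -0.22 to -0.08. The highest fold change of each gene but Rgs5 came without fibrosis mouse 3, and the lowest Acta2 difference did too. A replicate block for mouse numbers, added to the edgeR fit, gave 0 calls among the 10 genes and -0.16 for Acta2. The deviations of same-numbered mice had correlations of -0.48, 0.47 and -0.31 across genes. With 3 mice in each group and 2 libraries set apart by photoreceptor RNA, these values cannot decide whether the numbers pair the mice.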
